A study of Mus musculus with 12 samples.

Results

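The genes described here are 10 components of signalling from the receptors for prolactin and growth hormone through the transcription factors Stat5a and Stat5b: Prlr, Ghr, Jak2, Stat5a, Stat5b, Cish, Socs1, Socs2, Socs3 and Pim1. They were taken by gene symbol from the platform's annotation, which linked 22 of the 45101 probe sets to them. These probe sets cover 9 of the 10 genes, out of 18193 genes measured. Prlr, the prolactin receptor, was linked to none and was not analysed here. Ghr had 3 probe sets, Jak2, Stat5a, Stat5b and Pim1 2 each, Cish and Socs1 1 each, Socs2 6 and Socs3 3.

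Prolactin or growth hormone brings together 2 chains of its receptor, the bound kinase Jak2 then phosphorylates the receptor and Stat5, and Stat5 enters the nucleus and binds target genes. Among its targets are Cish and the SOCS genes, whose proteins bind the activated receptor or kinase and damp the signal, and Pim1, a serine/threonine kinase. In the mammary gland prolactin and Stat5a are known above all for the formation of alveoli and the expression of milk proteins.

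RNA came from whole mammary glands of virgin C57BL/6 mice whose ovaries had been removed. The 4 groups of 3 mice were wildtype (Ccnd1+/+) on placebo, wildtype on estradiol, knockout (Ccnd1-/-) on placebo and knockout on estradiol. Estradiol came from pellets of 0.72 mg made for 60 days of release, and treatment lasted 7 days. Ccnd1 encodes cyclin D1, a partner of kinases of the G1 phase of the cell cycle, and the labels name no tissue to which its loss was limited. The labels give no age, no clear recovery time after surgery and no word on which gland was taken. The mice were separate animals, 6 of each genotype, and each contributed 1 Affymetrix array.

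Values are log2 intensities, so a difference of 1 is a factor of 2. The array medians lay between 5.73 and 5.80, and the correlation between any 2 arrays, taken across genes, was 0.945 to 0.992. Ccnd1 ranged from 7.24 to 7.68 in the 6 knockout arrays and from 8.50 to 10.82 in the 6 wildtype arrays (exact two-sided permutation p = 0.00216, the smallest that 924 arrangements can give). The position of its probes relative to the deleted part is not known here. The tissue label was checked on marker genes. The adipocyte hormone Adipoq lay between 13.49 and 13.81 in all 12 arrays and the epithelial adhesion gene Epcam between 7.31 and 7.83. The luminal keratin Krt18 lay between 9.05 and 11.22 in wildtype estradiol glands, but was under the lower quartile of the array in 3 of the 6 knockout glands. Over 14 luminal marker genes the median knockout minus wildtype difference was -0.94 on placebo and -3.28 on estradiol, so the steady Epcam does not stand for them.

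Promoter windows of the genes were searched for the letters TTCNNNGAA, the consensus of the GAS element that Stat5 binds; the motif is its own reverse complement, so 1 search covers both strands. Windows of 300 bases, 250 of them before the transcription start, come from RefSeq on build GRCm38.p6. The table holds windows of 9 of the 10 genes (Socs2 is not among them), 15 windows in all. GAS letters were in 3 of these 15, and in 2726 of all 32851 windows (8.3%). The palindromic estrogen response element (GGTCA and TGACC set 3 bases apart, also its own reverse complement) were in none of the 15 and in 23 of all 32851 windows (0.07%). The stretches of Cish and Socs3, the feedback genes with a match, are shown with the motif letters in capitals.
Cish: agttTTCCTGGAAagTTCTTGGAAatctgt
Socs3: gaaaccagccTTCTTAGAAgggagggggg
The Cish stretch (chr9:107296655-107296684, plus strand) begins 4 bases before the start, so its 2 matches begin at bases 1 and 12 of the transcript. The Socs3 stretch (chr11:117969502-117969530, minus strand) has its match at base -154 counted from the start. The third window with a match was that of Prlr, at base -110. A match describes letters only, and neither Cish nor Socs3 passed any test below.

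Estradiol in wildtype glands raised Socs2 and Stat5a. In the limma fit 2 of the 9 measured genes were higher at an adjusted p under 0.05 (Benjamini-Hochberg over all genes) and none was lower. Of all 18193 genes 1.83% were called higher in this comparison. The other 7 genes, Ghr, Jak2, Stat5b, Cish, Socs1, Socs3 and Pim1, had differences from -0.60 to 0.34 on their brightest probe sets. The median of the 9 differences was 0.16, beside 0.01 over all genes.

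Socs2 encodes the SOCS protein best known as a brake on growth hormone signalling. On the brightest of its probe sets, 1449109_at, wildtype placebo arrays read 9.07, 8.99 and 9.28 and wildtype estradiol arrays 10.45, 10.57 and 10.17. Knockout placebo arrays read 9.25, 9.34 and 9.20 and knockout estradiol arrays 10.32, 10.65 and 10.12. All 6 estradiol arrays thus lay above all 6 placebo arrays, and within each treatment the genotypes overlapped. The rise was 1.28 ± 0.15 in wildtype (SE, 2.43-fold, limma adjusted p = 0.00443) and 1.10 ± 0.15 in knockout (2.14-fold, adjusted p = 0.0345). The 2 rises differed by -0.18 ± 0.22 (knockout minus wildtype response, adjusted p = 0.965, 95% interval -0.67 to 0.30). Over both genotypes the rise was 1.19 ± 0.11 (adjusted p = 8.53e-04). The wildtype call held whichever of the 12 arrays was left out, with a difference of 1.20 to 1.39. The knockout call held when wildtype placebo array 3, wildtype estradiol array 2 or 3, or knockout estradiol array 3 was left out, and was lost without any 1 of the other 8 arrays (1.10 without each wildtype array among them, otherwise 0.96 to 1.14, adjusted p = 0.0727 to 0.171).

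**Figure D1:**
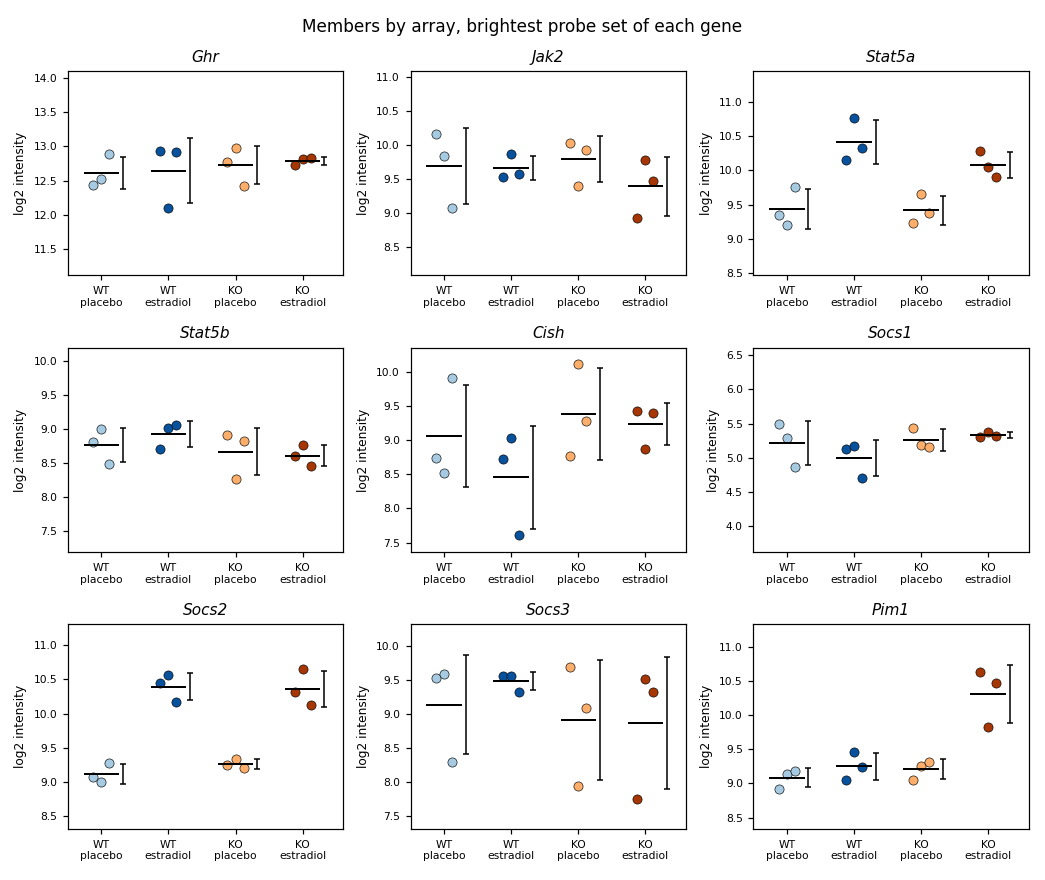
Log2 intensity (vertical axes, each spanning the same number of log2 units) of the brightest probe set of each of the 9 measured genes in the 4 groups. Points are arrays, horizontal lines group means and vertical bars 1 SD (n = 3); Socs2 and Stat5a separate by treatment in both genotypes, and Pim1 stands high in the knockout estradiol group alone.

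The 6 probe sets of Socs2 did not give 1 answer; their estradiol differences spanned 0.13 to 1.35 (wildtype) and -0.10 to 1.10 (knockout). The platform pairs 1449109_at and 1418507_s_at with the gene's reference mRNA, and the other 4 with other transcript entries. On 1418507_s_at the 3 wildtype placebo arrays read 8.82, 8.46 and 8.41, the wildtype estradiol arrays 10.21, 9.95 and 9.59, the knockout placebo arrays 8.54, 9.00 and 8.83, and the knockout estradiol arrays 9.54, 9.99 and 9.47. Its groups again separated by treatment, with a rise of 1.35 ± 0.20 in wildtype (adjusted p = 0.0124) and a difference of 0.88 ± 0.20 in knockout that did not pass (adjusted p = 0.317).

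On 2 other Socs2 probe sets the knockout estradiol arrays lay below the wildtype estradiol arrays. On 1442586_at wildtype placebo arrays read 6.15, 5.91 and 6.31, wildtype estradiol arrays 6.94, 7.01 and 7.05, knockout placebo arrays 6.09, 6.51 and 5.90, and knockout estradiol arrays 6.27, 6.30 and 6.21. The wildtype rise was 0.88 ± 0.16 (adjusted p = 0.0249), and the knockout difference was 0.09 ± 0.16. The knockout estradiol arrays lay below the wildtype estradiol arrays by 0.74 ± 0.16 on average (log2 difference -0.74, adjusted p = 0.0693), and the interaction was -0.79 ± 0.22 (adjusted p = 0.562); neither passed. On 1438470_at wildtype placebo arrays read 6.06, 5.90 and 6.13, wildtype estradiol arrays 7.16, 6.96 and 7.05, knockout placebo arrays 6.13, 6.53 and 5.82, and knockout estradiol arrays 6.57, 6.79 and 5.83. Knockout estradiol arrays 1 and 2 were thus above all 6 placebo arrays and array 3 was not. The difference was 1.03 ± 0.24 in wildtype (adjusted p = 0.0771) and 0.24 ± 0.24 in knockout, with an interaction of -0.79 ± 0.34 (adjusted p = 0.849). The dimmer 1446085_at differed by 0.36 in wildtype and 0.09 in knockout. The last, 1441476_at, lay under the lower quartile of all 12 arrays and differed by 0.13 and -0.10. When each of the 34945 probe sets was tested on its own, 4 of the 22 were called higher in wildtype, 3 of Socs2 and 1 of Stat5a, where 1.19% of all probe sets were; in knockout 1 was, 1449109_at of Socs2, where 0.0572% were. With the mean of all its probe sets as the gene's value Socs2 kept its call in wildtype and lost it in knockout. What the probes of the 4 dimmer sets match was not tested.

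**Figure D2:**
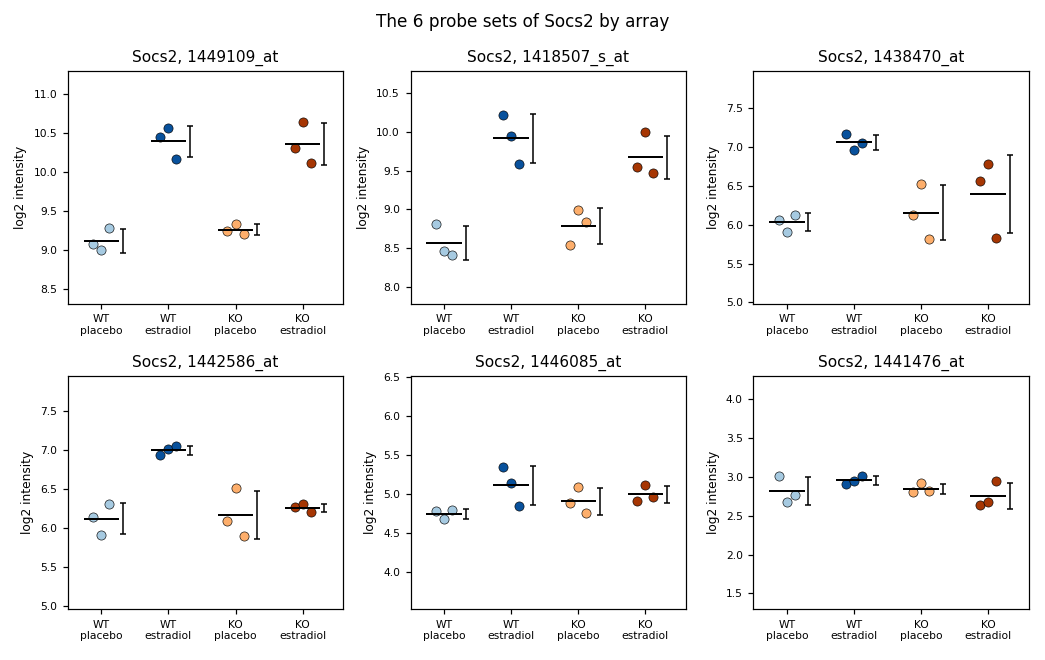
Log2 intensity (vertical axes) of the 6 probe sets of Socs2 in the 4 groups; points are arrays, lines group means and bars 1 SD (n = 3). In the 2 sets paired with the reference mRNA both estradiol groups lie above both placebo groups, while in 1442586_at only wildtype estradiol stands apart, at 6.94 to 7.05.

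Stat5a, the Stat5 form that predominates in mammary epithelium, had 2 probe sets. On the brighter, 1421469_a_at, wildtype placebo arrays read 9.35, 9.20 and 9.76 and wildtype estradiol arrays 10.16, 10.78 and 10.32. Knockout placebo arrays read 9.23, 9.65 and 9.37 and knockout estradiol arrays 10.28, 10.05 and 9.90. Estradiol and placebo arrays did not overlap in either genotype, and the highest value was that of wildtype estradiol array 2. The rise in wildtype was 0.98 ± 0.20 (SE, 1.98-fold, limma adjusted p = 0.0399). In knockout the difference of 0.66 ± 0.20 did not pass (adjusted p = 0.417), and the responses differed by -0.32 ± 0.28 (adjusted p = 0.925, 95% interval -0.95 to 0.31). Averaged over both genotypes Stat5a rose by 0.82 ± 0.14 (adjusted p = 0.0206). That call was lost when any 1 of 7 arrays was left out: in wildtype, arrays 1 and 2 on placebo and 3 on estradiol; in knockout, arrays 1 and 3 on placebo and 1 and 2 on estradiol (0.76 to 0.85, adjusted p = 0.0519 to 0.0676).

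The second Stat5a probe set, 1450259_a_at, read 5.38, 5.58 and 6.89 in wildtype placebo and 7.02, 7.73 and 7.45 in wildtype estradiol arrays. It read 5.82, 5.43 and 5.86 in knockout placebo and 7.54, 6.94 and 6.48 in knockout estradiol arrays. These groups also separated by treatment in each genotype, with wider scatter: the differences were 1.45 ± 0.39 (adjusted p = 0.123) and 1.28 ± 0.39 (adjusted p = 0.475), and neither passed. Averaged over both genotypes this probe set rose by 1.37 ± 0.28, which passed narrowly (limma adjusted p = 0.0498 over all probe sets). The Stat5a call in wildtype was narrow. It held when array 3 of wildtype placebo, array 1 of wildtype estradiol or array 2 of knockout placebo was left out, and was lost without any 1 of the other 9 arrays, where the difference was 0.81 to 1.03 and the adjusted p 0.0511 to 0.178.

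Stat5b, the close paralogue of Stat5a, did not pass in any comparison. On its brighter probe set, 1422103_a_at, wildtype arrays read 8.82, 9.00 and 8.50 on placebo and 8.71, 9.01 and 9.06 on estradiol. Knockout arrays read 8.91, 8.27 and 8.82 on placebo and 8.60, 8.77 and 8.46 on estradiol. All 4 groups overlapped, and the estradiol differences were 0.16 ± 0.19 in wildtype (95% interval -0.27 to 0.59) and -0.06 ± 0.19 in knockout. The dimmer probe set stayed between 7.32 and 7.73 in all 12 arrays.

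Pim1 differed between genotypes under estradiol. On 1435458_at, its brighter probe set, wildtype arrays read 8.92, 9.14 and 9.18 on placebo and 9.06, 9.46 and 9.24 on estradiol. Knockout arrays read 9.05, 9.26 and 9.32 on placebo and 10.64, 9.82 and 10.47 on estradiol. The 3 knockout estradiol arrays lay above the other 9, which overlapped. Knockout exceeded wildtype under estradiol by 1.06 ± 0.20 (SE, 2.08-fold, limma adjusted p = 0.0374). That was 1 of the 9 genes higher, where 0.033% of all genes were called higher in this comparison and 1.09% lower; none of the 9 was lower. The call held without wildtype placebo array 3 or knockout estradiol array 2 and was lost without any 1 of the other 10 arrays (difference 0.90 to 1.16, adjusted p = 0.0546 to 0.160).

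Within the knockout Pim1 differed by 1.10 ± 0.20 between estradiol and placebo and did not pass (adjusted p = 0.115). Only 1 of the 9 genes, Socs2, was called higher in the knockout estradiol comparison, where 0.0934% of all genes were. Without knockout estradiol array 2, the lowest of its group for Pim1, the difference was 1.34 and passed (adjusted p = 0.0200). In wildtype it was 0.17 ± 0.20. The interaction was 0.93 ± 0.28 (adjusted p = 0.527, 95% interval 0.30 to 1.56) and did not pass. None of the 9 genes was called for the interaction, where 0.011% of all genes were, and 1, Pim1, had an unadjusted p under 0.05 in limma, as did 1170 of all 18193 genes.

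The second Pim1 probe set, 1423006_at, read 7.31, 5.71 and 7.01 in the knockout estradiol arrays and between 5.32 and 5.94 in the other 9. Arrays 1 and 3 of that group were high and array 2 was not, the same order as on the brighter set. Its knockout minus wildtype difference under estradiol was 1.02 ± 0.34 (adjusted p = 0.258), which did not pass.

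**Figure D3:**
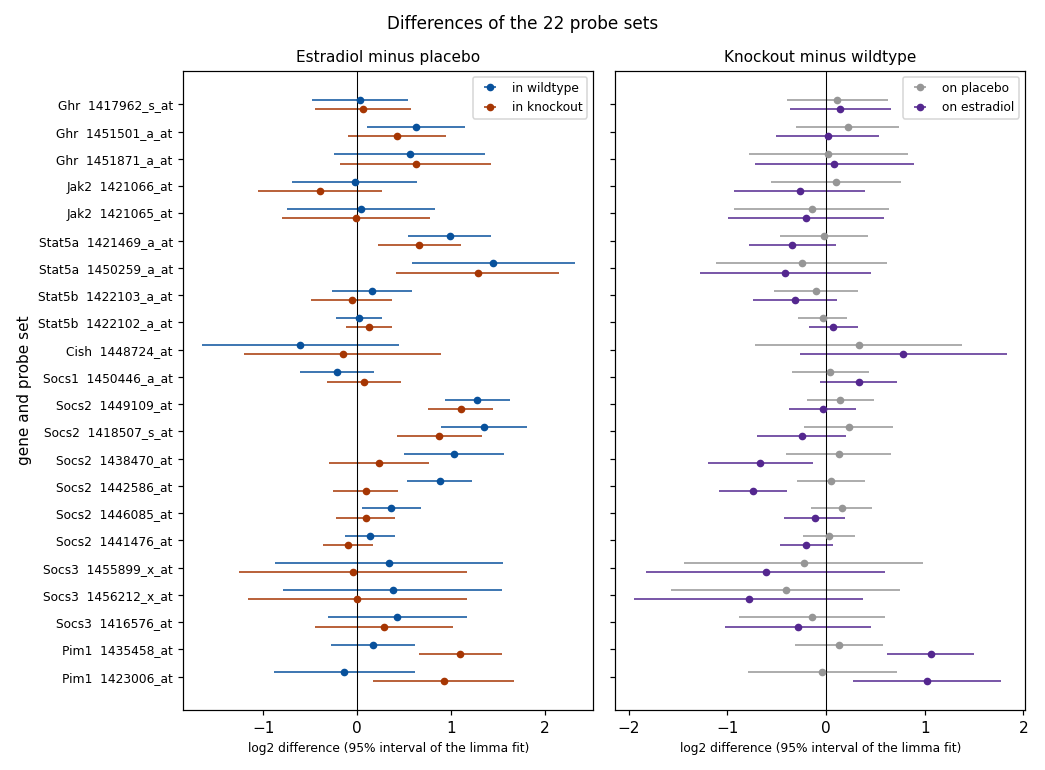
Log2 differences (horizontal axes) of the 22 probe sets with 95% intervals of the limma fit, estradiol minus placebo on the left and knockout minus wildtype on the right. Both Stat5a sets and the 2 brighter Socs2 sets lie to the right in the left panel, and Pim1 lies to the right only in the knockout (left panel) and under estradiol (right panel).

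Placebo glands of the 2 genotypes did not differ in any of the 9 genes past the threshold. The differences, knockout minus wildtype, ran from -0.23 for Socs3 to 0.33 for Cish. None was called (0% of all genes were), none had an unadjusted p under 0.05 in limma, and 370 of all genes did. The average genotype effect likewise called none of the 9 genes and 0% of all genes; 1 of the 9, Pim1, had an unadjusted p under 0.05 (0.60 ± 0.14, adjusted p = 0.184), as did 1845 of all genes. The average estradiol effect called Socs2 and Stat5a, 2 of the 9 genes, where 1.43% of all genes were called higher.

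The receptor gene Ghr gave different values on its 3 probe sets. On the brightest, 1417962_s_at, wildtype arrays read 12.44, 12.52 and 12.89 on placebo and 12.94, 12.09 and 12.91 on estradiol, and the difference was 0.03 ± 0.23. Knockout arrays read 12.78, 12.97 and 12.43 on placebo and 12.72, 12.82 and 12.83 on estradiol, a difference of 0.06 ± 0.23. The groups overlapped in both genotypes. The 2 other sets, 1451501_a_at and 1451871_a_at, differed by 0.63 and 0.56 in wildtype and by 0.43 and 0.62 in knockout. On both, the 3 knockout estradiol arrays lay above the 3 knockout placebo arrays. Neither passed in either genotype (lowest limma adjusted p = 0.291, for 1451501_a_at in wildtype). Averaged over both genotypes they differed by 0.53 ± 0.17 and 0.59 ± 0.26 and did not pass (adjusted p = 0.181 and 0.310). Suffixes such as _s_at and _a_at mark sets whose probes match more than 1 transcript, and which Ghr transcripts each set reads was not tested.

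Jak2, the kinase bound to these receptors, did not pass. Its brighter probe set, 1421066_at, read 10.16, 9.84 and 9.07 in wildtype placebo, 9.53, 9.87 and 9.58 in wildtype estradiol, 10.04, 9.40 and 9.93 in knockout placebo and 8.93, 9.78 and 9.47 in knockout estradiol arrays. The estradiol difference was -0.03 ± 0.30 in wildtype and -0.40 ± 0.30 in knockout. On the dimmer probe set, 1421065_at, it was 0.04 ± 0.35 and -0.02 ± 0.35. The SD within groups was 0.18 to 0.56 on the brighter set, and scores of more than 1 cell type varied with Jak2. The T cell score, the mean of 9 T cell genes (Cd3d, Cd3e, Cd3g, Cd2, Cd5, Cd4, Cd8a, Cd8b1 and Cd28) after each was centred on its own mean, was 2.25, 1.55 and -1.81 in the wildtype placebo arrays and -1.92, 0.48 and -1.97 in the wildtype estradiol arrays. It was 1.63, -1.68 and 1.77 in knockout placebo and -1.89, 1.51 and 0.09 in knockout estradiol arrays. In wildtype placebo and knockout estradiol the arrays stood in the same order for Jak2 as for this score. In wildtype estradiol the 2 lowest and in knockout placebo the 2 highest changed places. The white adipocyte score ran from -0.42 to 0.44; its lowest array had the highest Jak2 value, 10.16, and its highest array read 9.07.

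Socs3, the SOCS protein best known for damping signals of the interleukin-6 family, was as uneven. Its brightest probe set, 1455899_x_at, read 9.53, 9.59 and 8.29 in wildtype placebo, 9.55, 9.56 and 9.33 in wildtype estradiol, 9.69, 7.95 and 9.09 in knockout placebo and 7.76, 9.52 and 9.33 in knockout estradiol arrays. The 3 lowest values, 8.29, 7.95 and 7.76, came from 3 of the 5 arrays with a T cell score below 0; the other 2, wildtype estradiol arrays 1 and 3, read 9.55 and 9.33. Estradiol differences were 0.34 ± 0.55 in wildtype and -0.04 ± 0.55 in knockout, and the other 2 probe sets gave 0.38 and 0.43 in wildtype and 0.00 and 0.29 in knockout. On 1416576_at the wildtype estradiol arrays lay above the wildtype placebo arrays (limma adjusted p = 0.671). On 1456212_x_at the knockout estradiol arrays lay below the wildtype estradiol arrays (adjusted p = 0.592). Neither difference passed. The suffix _x_at marks a set with probes that may also match other genes.

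With the lymphocyte score (averaging the T cell and the B cell score) as a covariate the SE of Jak2 fell from 0.30 to 0.12 in wildtype, and its estradiol difference there was 0.34 (adjusted p = 0.167). With the white adipocyte score that SE was 0.15 and the difference 0.12. Under estradiol Jak2 was, with the lymphocyte score, lower in knockout than in wildtype by 0.47 (log2 difference -0.47, SE 0.11, adjusted p = 0.0460), a call that was absent without the covariate (-0.27, adjusted p = 0.752). For Socs3 the same fit gave 0.97 ± 0.29 in wildtype (adjusted p = 0.104) and a knockout minus wildtype difference of -0.96 ± 0.28 under estradiol (adjusted p = 0.0744), and neither passed. In whole glands fewer cells of a type and less RNA per cell cannot be told apart.

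Cish, a direct target of Stat5 and itself a SOCS family member, did not follow Socs2. Wildtype arrays read 8.74, 8.52 and 9.91 on placebo and 8.73, 9.03 and 7.61 on estradiol, a difference of -0.60 ± 0.48 (95% interval -1.66 to 0.45). Knockout arrays read 8.77, 10.11 and 9.28 on placebo and 9.42, 8.88 and 9.41 on estradiol, a difference of -0.15 ± 0.48. Every pair of groups overlapped. Socs1, which binds the JAK kinases themselves, was dim and stayed between 4.70 and 5.49 in all 12 arrays. Its estradiol differences were -0.21 ± 0.18 and 0.07 ± 0.18. The 3 knockout estradiol arrays (5.30, 5.38 and 5.32) lay above the 3 wildtype estradiol arrays (5.12, 5.17 and 4.70), a difference of 0.33 ± 0.18 that did not pass (adjusted p = 0.451).

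Marker genes of several cell types moved with estradiol in the wildtype glands in which Stat5a and Socs2 rose. Of 10 basal epithelial genes 4 rose there, Acta2, Cnn1, Oxtr and Actg2, where 1.83% of all genes were called higher. All 10 differences were above 0, and Krt17 was under the lower quartile of all 12 arrays. The basal score ranged from -0.89 to -0.04 in wildtype placebo, 0.76 to 1.42 in wildtype estradiol, -0.51 to -0.19 in knockout placebo and -0.28 to 0.05 in knockout estradiol arrays. Of 14 luminal genes 1 rose in wildtype, Prom1, but all 14 differences were above 0, with a median of 1.70. The luminal score ranged from -0.15 to 0.40, 1.01 to 2.71, -1.47 to 0.13 and -1.49 to -0.77 in the same order. Of 12 macrophage genes 3 rose, Cd14, Fcgr1 and Fcgr3, with scores of -0.95 to -0.37, 0.40 to 1.91, -0.63 to -0.13 and -0.21 to 0.29. Of 8 fibroblast genes 1 rose, Pdgfra, with scores of -1.09 to 0.07, 0.55 to 0.92, -0.58 to 0.27 and -0.57 to 0.37. All 12 macrophage and all 8 fibroblast differences in wildtype were above 0. Under estradiol 6 of the 14 luminal and 3 of the 10 basal genes were called lower in knockout than in wildtype. Of all genes 1.09% were.

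Stat5a and Socs2 were refitted with each of these scores as a covariate. Each score separated wildtype estradiol from wildtype placebo arrays, so in wildtype these fits cannot tell a score from the treatment. Stat5a in wildtype was 0.68 ± 0.28 with the luminal, 0.61 ± 0.30 with the fibroblast, 1.09 ± 0.40 with the macrophage and -0.25 ± 0.29 with the basal score. None of these passed (adjusted p = 0.301 to 0.694), and the SE without a score was 0.20. Across arrays its highest value, 10.78, was in the array with the highest basal score, 1.42. Socs2 in wildtype was 1.32 ± 0.24 with the luminal, 1.05 ± 0.24 with the fibroblast, 1.12 ± 0.30 with the macrophage and 0.94 ± 0.38 with the basal score. None was past the threshold (adjusted p = 0.0909 to 0.337), beside 1.28 ± 0.15 without a score. In the knockout, where the basal and luminal scores of estradiol arrays overlapped those of placebo arrays, Socs2 was 1.10 and 1.05 with the luminal and basal scores (adjusted p = 0.0716 and 0.0631). Averaged over genotypes Socs2 kept its call with the luminal (1.21), fibroblast, lymphocyte, muscle and white adipocyte scores. It lost the call with the macrophage (1.08 ± 0.20, adjusted p = 0.160) and basal scores (0.99 ± 0.23, adjusted p = 0.205). For Pim1 the knockout minus wildtype difference under estradiol was 1.74 ± 0.36 with the luminal and 1.68 ± 0.35 with the basal score. Without a score it was 1.06 ± 0.20. Neither fit with a score passed (limma adjusted p = 0.979 and 0.0965). Both scores separated knockout from wildtype estradiol arrays, so these fits cannot tell a score from the genotype.

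**Figure D4:**
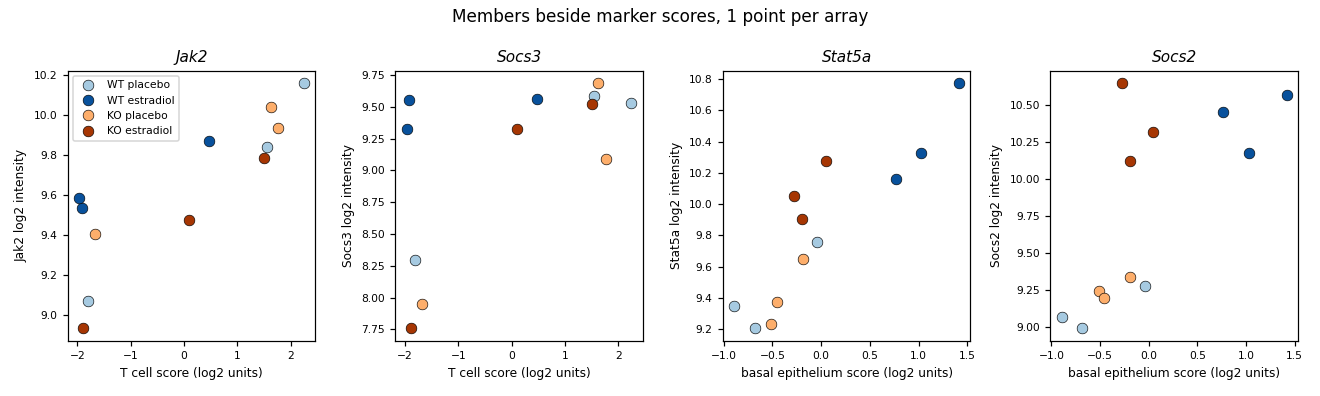
Log2 intensity (vertical axes) of Jak2 and Socs3 against the T cell score and of Stat5a and Socs2 against the basal epithelium score (horizontal axes, mean of centred log2 values), 1 point per array. The 3 knockout estradiol arrays have Socs2 values of 10.12 to 10.65 at basal scores of -0.28 to 0.05, and all 6 placebo arrays have 8.99 to 9.34.

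The genes whose profile over the 12 arrays lay nearest to each gene's own were found by the root mean square difference of centred log2 values. For Stat5a these were Ctr9 (0.18), Slc35e3 (0.19), Vangl1 (0.20), Rnpep (0.21) and Prps1 (0.21), against an SD of Stat5a over the arrays of 0.50. For Socs2 they were the secreted protease Htra1 (0.19), Chst8 (0.20), the extracellular glutathione peroxidase Gpx3 (0.23), the heme synthesis enzyme Alas1 (0.26) and Rgs3 (0.27), against an SD of 0.64.

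Other genes of the pathway were taken from 5 lists with 83 entries, of which 80 were measured (Osm stands in 2 lists). Of 20 cytokine receptors and ligands 2 rose under estradiol in wildtype, where 1.83% of all genes were called higher, and none fell. Lif, a ligand of the interleukin-6 family, read 5.20, 4.83 and 5.12 on placebo and 5.65, 5.96 and 5.80 on estradiol in wildtype, and 4.97 to 5.33 in all 6 knockout arrays. It rose by 0.75 in wildtype (limma adjusted p = 0.0239), and its knockout difference was 0.06. The lower quartile of the arrays lay between 4.92 and 5.05. Lif was thus close to it outside wildtype estradiol, and the size of its rise is not well measured. Osmr, the receptor for oncostatin M, read 8.66, 8.65 and 8.79 on placebo and 9.61, 9.40 and 9.21 on estradiol in wildtype, and 8.42 to 8.89 in knockout arrays. It rose by 0.71 (adjusted p = 0.0405), with a knockout difference of 0.05.

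For both genes the wildtype estradiol arrays stood above the other 9. The interactions were -0.69 for Lif (adjusted p = 0.429) and -0.65 for Osmr (adjusted p = 0.537) and did not pass. The Lif call was lost without wildtype placebo array 1 or 2 or wildtype estradiol array 2 or 3 (0.64 to 0.83), and the Osmr call held in 4 of the 12 fits that left out an array (without wildtype placebo array 3 or any 1 of knockout placebo arrays 2 and 3 and knockout estradiol array 3). Prl, the gene for prolactin itself, and Il6 lay under the lower quartile in all 12 arrays.

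None of the 7 other JAK and STAT genes and none of the 21 other SOCS, PIAS, phosphatase and adaptor genes passed in any comparison. In wildtype, limma gave an unadjusted p under 0.05 for 2 and 4 of them, and for 2450 of all 18193 genes. Stat2, a STAT of the interferon response, had 0.63 in wildtype (adjusted p = 0.127) and Stat3, the STAT of the interleukin-6 family, 0.49 (adjusted p = 0.306). Socs6 had 0.51 in wildtype and 0.53 in knockout, and the adaptor Shc1 0.40 and 0.22. The median difference in wildtype was -0.11 for the JAK and STAT list and -0.05 for the SOCS and adaptor list. Only 2 of the 7 JAK and STAT genes were above 0 there, Stat2 and Stat3, and the lowest difference was -2.10. Of the 21 other genes 8 were above 0, and the lowest difference was -1.12.

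Of 19 genes known as Stat5 targets in mammary epithelium 1 rose in wildtype, where 1.83% of all genes were called higher, and none fell. In knockout none was called, beside 0.0989% of all genes. There limma gave an unadjusted p under 0.05 for 0 of the 19 and for 1513 of all 18193 genes. The gene that rose was Cel, a bile salt-stimulated lipase secreted into milk. It read 3.75, 4.17 and 3.87 on placebo and 5.15, 6.13 and 6.19 on estradiol in wildtype, and 4.03 to 4.16 in all 6 knockout arrays. Its rise was 1.89 ± 0.24 (SE, limma adjusted p = 0.00486), and the call held whichever array was left out (1.71 to 2.23). All 9 arrays outside wildtype estradiol were under the lower quartile, so the size of the rise is not well measured. Averaged over both genotypes Cel rose by 0.97 (adjusted p = 0.0213), with a difference of 0.06 in knockout. The averaged call was lost when any 1 of 6 arrays was left out, those named for the average of Stat5a other than wildtype placebo array 2 (0.88 to 0.98, adjusted p = 0.0546 to 0.0683). The milk protein genes did not pass: the casein Csn3 differed by 3.22 (adjusted p = 0.172) and Csn2 by -2.38 (adjusted p = 0.423) in wildtype, and Csn1s2b was under the lower quartile in all 12 arrays. The median of the 19 differences was 0.23 in wildtype and 0.05 in knockout.

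Under estradiol 2 of these 19 genes were lower in knockout than in wildtype, Elf5 and Cel. In this comparison 1.09% of all genes were called lower. Elf5, a transcription factor of luminal progenitors and alveolar cells, read 6.34, 6.46 and 7.48 in wildtype placebo, 8.40, 10.80 and 8.94 in wildtype estradiol, 3.50, 3.88 and 6.24 in knockout placebo and 4.86, 3.64 and 5.92 in knockout estradiol arrays. Both knockout groups lay below both wildtype groups, and 4 of the 6 knockout arrays were under the lower quartile. The difference under estradiol was -4.57 ± 0.85 (SE, adjusted p = 0.0359), and that of Cel -1.71 (adjusted p = 0.0151). Cel was under the lower quartile in all 3 knockout estradiol arrays and Elf5 in 2 of them, so the size of neither difference is well measured. The luminal score moved with Elf5, at 1.01 to 2.71 in wildtype and -1.49 to -0.77 in knockout estradiol arrays. With that score as a covariate the Elf5 difference was 0.04 ± 0.65. The score separated these 2 groups, so this fit cannot tell the score from the genotype. The Elf5 call held when array 3 of wildtype placebo, array 1 of wildtype estradiol or any 1 array of knockout placebo was left out, and was lost without any 1 of the other 7 arrays (-5.13 to -3.87). The Cel call was lost without wildtype estradiol array 3 or knockout estradiol array 2 or 3 (-1.74 to -1.53).

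Of 13 genes known as Stat5 targets in other tissues none passed in any comparison, and limma gave an unadjusted p under 0.05 for 2 in wildtype and 1 in knockout, beside 2450 and 1513 of all 18193 genes. Igf1, the growth factor that growth hormone and Stat5b induce in liver, differed by -1.22 in wildtype (adjusted p = 0.308) and -1.41 in knockout (adjusted p = 0.506). The cell cycle inhibitor Cdkn1a differed by 0.84 and 0.63. With the lymphocyte score as a covariate the Igf1 difference in wildtype was -1.67 and passed (adjusted p = 0.0447).

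**Figure D5:**
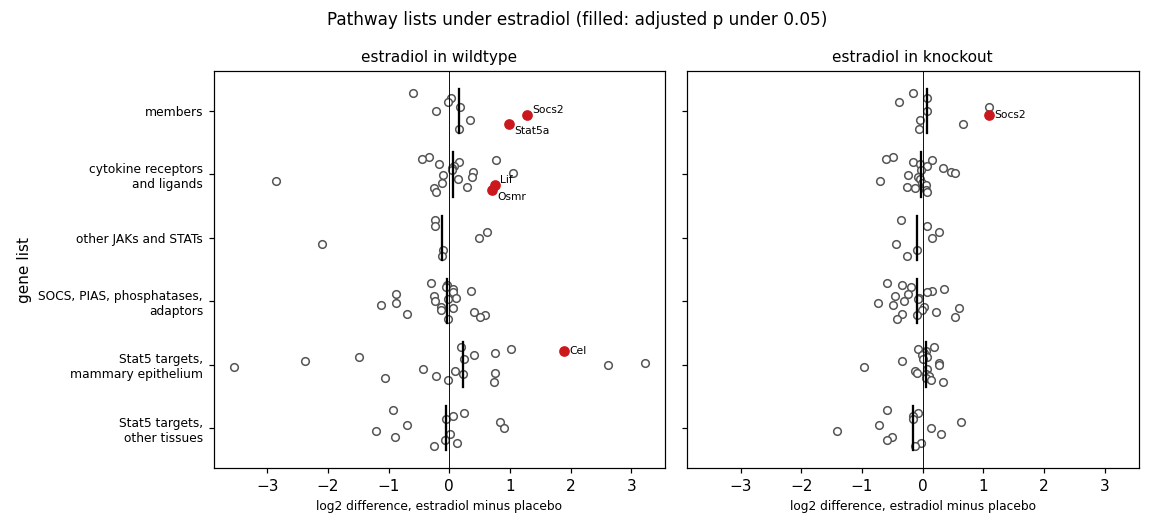
Log2 differences, estradiol minus placebo (horizontal axes), of the measured genes and of the 5 pathway lists (vertical axis), in wildtype on the left and knockout on the right. Filled points passed at an adjusted p under 0.05 and bars mark list medians; 5 genes are filled in wildtype and Socs2 alone in knockout.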

How the data were processed

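The deposited values are log2 intensities of 45101 Affymetrix probe sets, normalised by the authors over 12 arrays; the submitters' processing notes name RMA and limma 2.9.16, and the chip definition is not given in the sources used here. In the platform annotation 34945 probe sets have 1 gene, 932 have several, 9160 have none and 64 are controls. Each of 18193 genes took the probe set that was brightest on average over the 12 arrays, whatever the group; 9010 had more than 1. No dim gene was removed, and no sample was dropped or imputed. One limma fit (limma 3.58.1, R 4.3.3) of 4 group means with eBayes (8 residual and 2.15 prior degrees of freedom) gave 7 comparisons, tested two-sided, with Benjamini-Hochberg adjustment over all genes and a threshold of 0.05. Ccnd1 was tested by exact permutation. Scores are means of centred log2 values of marker genes. The test was checked on simulated data. Arrays have no sequencing depth; their number limits the precision.

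The genes, lists and tests were chosen with earlier results of these data known. The text names every one of the 10 genes, list genes called in any comparison (at most 4 a list and comparison, otherwise the 2 with the smallest p over both genotypes), the 5 nearest genes of Stat5a and Socs2 (Prlr could not be used), Ccnd1 and defining markers; Csn2, Csn3, Csn1s2b, Prl and Il6 were named after their values were seen. Alternatives were a mean over a gene's probe sets, tests of single probe sets, omission of the 40% dimmest genes, quantile and median scaling, a trended robust prior, weights per array, a block for the replicate number, fits to the compared arrays alone, thresholds of 0.01 and 0.10, marker scores as covariates and omission of each array. The macrophage, fibroblast and basal scores were added as covariates after seeing the data. Promoter windows come from RefSeq on GRCm38.p6. Plots used matplotlib 3.10.9 (Python 3.11.15).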

Additional observations from a re-analysis of the deposited data

How the results depend on the processing

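The number of the 9 genes called was 2 for estradiol in wildtype, 1 for estradiol in knockout, 1 for knockout under estradiol and 2 for the average estradiol effect. In wildtype it was 1 with the mean of all probe sets, quantile or median scaling, only the compared arrays, an adjusted p under 0.01 or the muscle score, and 0 with the luminal, macrophage, fibroblast or basal score. In knockout it was 0 with the mean of probe sets, quantile scaling, only the compared arrays, 0.01, or the luminal, muscle, macrophage or basal score, and 2 with array weights. For knockout under estradiol it was 0 with the mean of probe sets, only the compared arrays, 0.01, or the luminal, muscle, macrophage, fibroblast or basal score, and 2 with the lymphocyte score. For the average effect it was 3 with array weights (Pim1 added), 1 with 0.01, the luminal or the fibroblast score, and 0 with the macrophage or basal score. With array weights the pathway genes Lif, Osmr, Stat2, Socs6, Shc1 and Igf1 gained a call for that effect as well. The share of all genes called in each of these fits is not given here, only the range of their counts below. Leaving out each array in turn gave 1 to 2, 0 to 1, 0 to 1 and 1 to 3 in the same order, and -2.12 to -1.65 for Ccnd1. With the replicate number as a block the counts were 1, 0, 0 and 1 (Stat5a adjusted p = 0.105 in wildtype); arrays of the same number share only that number (correlations of their deviations -0.74 to 0.66). Among called values 2 turned sign, Stat5a in wildtype, -0.25 with the basal score, and Elf5 in knockout under estradiol, 0.044 with the luminal score; the cause was not tested. Counting values that had not passed, 146 of the 1730 values of the 9 genes and 100 of the 1909 of the other pathway genes turned sign. Of those 1730, 1653 kept their side of the threshold, 70 lost and 6 gained a call. Median scaling shifted all genes by -0.13 in the wildtype estradiol comparison and by 0.16 for knockout under estradiol, where the share of calls that were higher went from 2.94% (6 of 204) to 13.0% (12 of 92). The count over all genes in wildtype, 342, ranged from 1 to 4702 over all alternatives and from 100 to 1146 with an array left out. Over all alternatives it ranged from 5 to 73 in knockout (18), 0 to 988 for knockout under estradiol (204), 0 to 84 for the interaction (2), 11 to 4835 for the average estradiol effect (287), 0 to 198 for the average genotype effect (0) and 0 to 4 for knockout on placebo (0).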
